A study of Mus musculus with 15 samples.

Results

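The 54 cell cycle and proliferation genes described here were chosen by gene symbol from a list of S phase and mitosis genes, and all 54 were found among the 16886 genes of the deposited table. They comprise 4 genes of the G1 phase (3 D-type cyclins and their kinase), 3 inhibitors of cyclin-dependent kinases, 5 transcription factors, 4 genes of the cyclin E and A step, 11 genes of DNA replication, 4 genes of nucleotide supply, 8 mitotic kinases, cyclins and passenger proteins, 5 genes of the spindle checkpoint and its ubiquitin ligase, 8 spindle and kinetochore genes, and Mki67 and Top2a. The rule uses the symbols alone.

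The cells were mouse bone macrophages, cultured for 14 days in M-CSF at 20 ng/ml. This is the growth factor on which macrophages depend for survival and division. Total RNA was sequenced after a messenger RNA library preparation in 5 libraries of a VLDLR knockout (VLDLR-/-, VLDLR_KO), 5 of a ROBO4 knockout (ROBO4-/-, ROBO4_KO) and 5 of wild type (WT), all labelled C57BL6J. VLDLR is a lipoprotein receptor and ROBO4 a guidance receptor best known from endothelial cells. The labels used here do not state the alleles, the animals' age, or whether each replicate was its own animal or culture. The p-values below therefore measure the spread between these libraries, which may be technical. The sample codes came in 2 forms, with a digit after or before the letter B, a difference whose meaning is not explained in the labels. The digit stood after the B in 8 libraries (VLDLR_KO 3 to 5, ROBO4_KO 3 to 5, WT 1 and 2) and before it in 7 (VLDLR_KO 1 and 2, ROBO4_KO 1 and 2, WT 3 to 5). They are called after-B and before-B libraries here.

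Dividing cells switch their genes on in waves. Growth factors raise the D-type cyclins, which with Cdk4 and Cdk6 lift the brake of the retinoblastoma proteins from E2F transcription factors; E2F then turns on the cyclins E and A and the enzymes of DNA replication, and later the MuvB complex, with B-Myb (Mybl2) and Foxm1, turns on the genes of mitosis. The inhibitors p21 (Cdkn1a), p27 (Cdkn1b) and p18 (Cdkn2c) oppose these kinases. Macrophage progenitors divide in M-CSF, and the cells leave the cycle as they mature.

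Library totals ran from 18132866 to 19005966 estimated counts, and 12198 genes, the 54 among them, passed the filter on low counts. The first principal component of all tested genes (34.1% of the variance) separated the after-B from the before-B libraries, and the second (28%) separated VLDLR_KO from the rest. VLDLR_KO 1 and 2 stood farthest out on the second component, and their counts differed by a chi-square of 92.6 per degree of freedom, the highest of the replicate pairs (lowest 5.92). The transcript of the deleted gene could check the labels only weakly. Vldlr had 1 to 9 estimated counts in VLDLR_KO, 2 to 38 in ROBO4_KO and 5 to 36 in WT, and Robo4 had 0 in every ROBO4_KO library, 0 or 1 in VLDLR_KO and 0 to 4 in WT. All 16 macrophage markers listed were detected, among them Csf1r, the receptor of M-CSF, with, in after-B libraries, 1520, 1470 and 1540 CPM in VLDLR_KO, 1550, 1480 and 1600 in ROBO4_KO and 1500 and 1650 in WT. Before-B libraries had 2500 and 2380 CPM in VLDLR_KO, 1520 and 1440 in ROBO4_KO and 1150, 1130 and 1300 in WT.

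Many of the genes rose together in after-B libraries, as described below, and the promoters of 4 of the 6 with the lowest adjusted p are printed here from the RefSeq promoter table, to show the sequence motifs by which late cell cycle genes are known to be controlled. Each runs from 250 bases before to 50 bases after the gene's start (build GRCm38.p6, read on the gene's strand). Capitals mark the cell cycle homology region (CHR, TTTGAA or TTCGAA) bound by the MuvB complex, the CCAAT box bound by NF-Y, and the E2F sites searched (TTTCCCGC, TTTGGCGC and TTTCGCGC), each on either strand; TTCGAA reads the same on both.

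Bub1b (the spindle checkpoint kinase BubR1), chr2:118597961-118598260, plus strand: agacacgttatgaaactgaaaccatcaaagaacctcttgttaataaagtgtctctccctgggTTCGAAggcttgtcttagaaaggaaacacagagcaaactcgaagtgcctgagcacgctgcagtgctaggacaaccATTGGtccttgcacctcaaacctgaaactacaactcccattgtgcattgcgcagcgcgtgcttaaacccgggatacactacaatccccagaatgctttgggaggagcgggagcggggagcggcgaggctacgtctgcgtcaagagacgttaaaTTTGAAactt

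Plk1 (Polo-like kinase 1), chr7:122159185-122159484, plus strand: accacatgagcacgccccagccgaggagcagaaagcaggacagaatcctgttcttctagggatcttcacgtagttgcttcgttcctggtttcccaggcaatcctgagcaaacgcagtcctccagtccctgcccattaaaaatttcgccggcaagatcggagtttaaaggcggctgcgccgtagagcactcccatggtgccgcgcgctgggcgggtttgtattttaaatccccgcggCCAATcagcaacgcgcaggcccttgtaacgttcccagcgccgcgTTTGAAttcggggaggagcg

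Aurka (Aurora kinase A), chr2:172370521-172370820, minus strand: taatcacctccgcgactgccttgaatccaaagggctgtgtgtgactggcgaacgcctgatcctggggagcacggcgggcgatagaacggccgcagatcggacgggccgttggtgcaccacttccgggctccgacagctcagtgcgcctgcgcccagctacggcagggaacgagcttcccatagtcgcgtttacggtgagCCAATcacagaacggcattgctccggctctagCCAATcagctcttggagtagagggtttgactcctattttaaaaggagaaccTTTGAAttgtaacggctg

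Ccnb1 (cyclin B1), chr13:100786437-100786736, minus strand: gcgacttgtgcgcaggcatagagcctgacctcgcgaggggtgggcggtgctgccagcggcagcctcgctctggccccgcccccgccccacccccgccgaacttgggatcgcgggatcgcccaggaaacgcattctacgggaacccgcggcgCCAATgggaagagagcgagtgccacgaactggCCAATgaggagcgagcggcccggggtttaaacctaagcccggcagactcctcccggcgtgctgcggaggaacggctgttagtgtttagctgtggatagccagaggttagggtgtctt

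The promoters of Bub1b, Plk1 and Aurka each held TTTGAA 31 to 41 bases downstream of the start, and Bub1b held a TTCGAA as well, 188 bases upstream. Ccnb1 held neither TTTGAA nor TTCGAA in this window, the only forms of the CHR searched. It had a pair of CCAAT boxes, as did Aurka. Plk1 had 1 CCAAT box, and Bub1b had 1 on the other strand. None of the 4 held an E2F site. Over the 43 of the 54 genes with a promoter in the table, a CHR was found in 44.2% and a CCAAT box in 74.4%, against 21.7% and 41.1% of all 27025 promoters. An E2F site was found in 20.9% of the 43 and in 2.12% of all promoters. The motifs were spread unevenly: 72.2% of the 18 mitotic genes with a promoter and 23.1% of the 13 S phase genes held a CHR, whereas an E2F site stood in 5.56% of the mitotic and 46.2% of the S phase genes. A match says only that the letters are there.

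The members were expressed over a wide range of levels. On the length-scaled FPKM values, Pcna, the sliding clamp of DNA polymerases, had a median of 563 FPKM over the 15 libraries, followed by Cdk4 (97.6 FPKM), Cdkn1a (83.3 FPKM), Ccnd1 (57.8 FPKM) and Mcm6 (35 FPKM). At the low end, Ccnd2 (1.04 FPKM), Mybl2 (1.09 FPKM), Cdc6 (1.11 FPKM) and Cenpf (0.93 FPKM) were close to 1 FPKM. The middle tested gene had 9.39 FPKM, and 22 of the 54 reached 10 FPKM. Every member had at least 10 estimated counts in every library. The spread between libraries differed widely among the members: the ratio, in CPM, of the highest to the lowest library was 51.8 for Cdc6, 49.0 for Ccne2, 33.2 for Ccnd2 and 30.2 for Rrm2, against 2.0 for E2f1, 1.87 for Cdkn1a and 1.72 for Ccnd3. ROBO4_KO 5 was the highest library for 31 of the members and VLDLR_KO 3 for 18, whereas VLDLR_KO 2 was the lowest for 29 and VLDLR_KO 1 for 9.

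**Figure D1:**
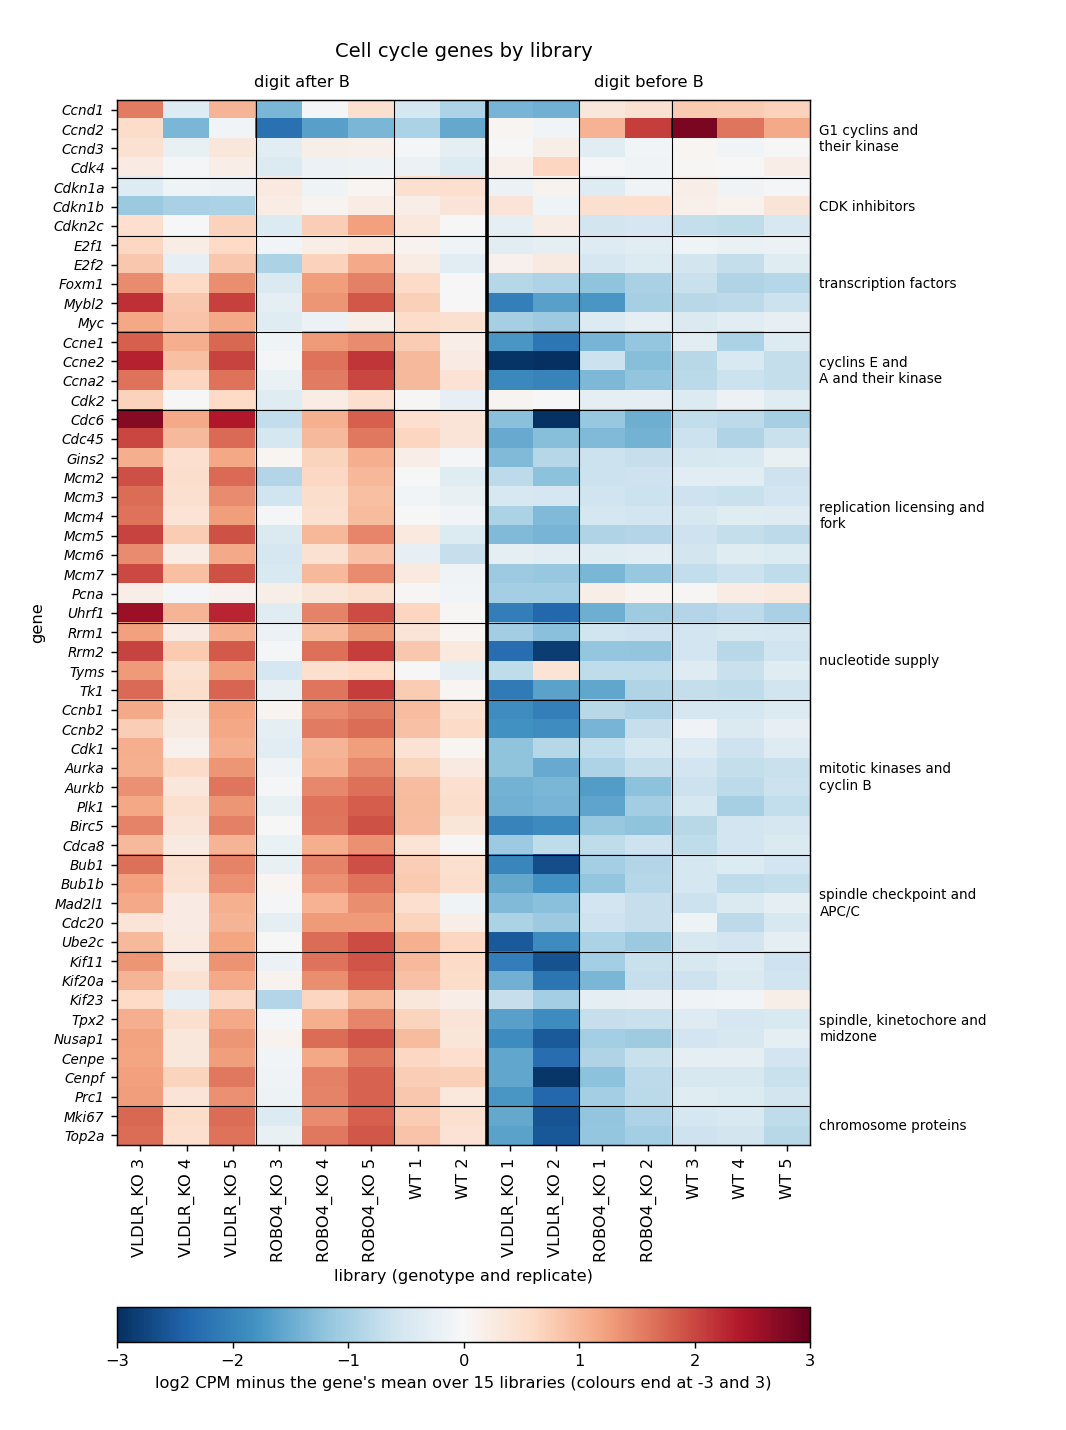
Level of each of the 54 genes (rows, by role) in each of the 15 libraries (columns, after-B libraries on the left), as log2 CPM minus the gene's mean over libraries; colours end at -3 and 3. Replication and mitosis genes lie above their mean in most after-B libraries, but below it in ROBO4_KO 3 (replication genes also in WT 2), and lowest in VLDLR_KO 1 and 2; the D-type cyclins and Cdkn1b do not follow them.

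After-B and before-B libraries differed in 49 of the 54 genes. With genotype in the model, 46 were higher and 3 lower in after-B libraries at an adjusted p under 0.05 (edgeR quasi-likelihood test, Benjamini-Hochberg adjustment over all tested genes), against 18.5% of all tested genes higher and 19.2% lower. The median log2 fold change was 1.79 over the members and -0.02 over all tested genes. All 8 after-B libraries lay above all 7 before-B libraries for 34 of the members (63.0%, against 6.26% of all tested genes), and below them for none. In RNA from whole cultures, fewer cycling cells and less of these transcripts per cell cannot be told apart.

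The D-type cyclins did not rise with the rest. Ccnd2 (cyclin D2) was, in after-B libraries, at 9.21, 2.4 and 5.89 CPM in VLDLR_KO, 1.33, 2.03 and 2.41 in ROBO4_KO and 3.24 and 2.17 in WT. Before-B libraries had 6.49 and 5.88 CPM in VLDLR_KO, 12.8 and 26.2 in ROBO4_KO and 44.3, 19 and 13.8 in WT. The forms overlapped only through the before-B VLDLR_KO and the higher after-B VLDLR_KO libraries, and Ccnd2 fell 5.03-fold, with a log2 fold change of -2.33 (SE 0.55, adjusted p = 0.00409). Within genotypes it was -0.08 (adjusted p = 0.918) in VLDLR_KO, -3.33 (adjusted p = 0.00188) in ROBO4_KO and -3.25 (adjusted p = 0.00363) in WT. Ccnd1 (cyclin D1), the most abundant D-type cyclin by FPKM, was, in after-B libraries, at 475, 124 and 327 CPM in VLDLR_KO, 63.1, 158 and 227 in ROBO4_KO and 112 and 86.2 in WT. Before-B libraries had 62.3 and 59.9 CPM in VLDLR_KO, 207 and 223 in ROBO4_KO and 279, 274 and 262 in WT. Its order reversed between genotypes: VLDLR_KO libraries were high in the after-B form and low in the before-B form, and WT libraries the other way round. The log2 fold change with genotype in the model was -0.03 (SE 0.56, adjusted p = 0.972). Without WT 1 and 2 it was 0.75, and without ROBO4_KO 3 and VLDLR_KO 4 it was 0.22. Ccnd3 (cyclin D3) was not called (0.07, adjusted p = 0.667). Cdk4, the kinase of the D-type cyclins, was, in after-B libraries, at 141, 116 and 136 CPM in VLDLR_KO, 89.8, 105 and 107 in ROBO4_KO and 105 and 89.1 in WT. Before-B libraries had 131 and 186 CPM in VLDLR_KO, 113 and 110 in ROBO4_KO and 121, 119 and 137 in WT. The ranges overlapped, and Cdk4 fell slightly, by a log2 fold change of -0.26 (SE 0.09, adjusted p = 0.0254); the call was lost without WT 2 or VLDLR_KO 2 (adjusted p 0.0669 to 0.0711).

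Of the 3 inhibitors, Cdkn2c (p18) rose (0.81, adjusted p = 0.0076), Cdkn1b (p27) fell and Cdkn1a (p21) was not called. Cdkn1b was, in after-B libraries, at 14.4, 15.9 and 16.3 CPM in VLDLR_KO, 36.4, 33.1 and 36.7 in ROBO4_KO and 36 and 40.8 in WT. Before-B libraries had 40.9 and 28.6 CPM in VLDLR_KO, 43.5 and 44.6 in ROBO4_KO and 34.6, 33.8 and 41 in WT. The 3 after-B VLDLR_KO libraries stood apart from the other 12, and the log2 fold change was -0.46 (SE 0.16, adjusted p = 0.0305). The call was lost without VLDLR_KO 1, 3, 4 or 5 (adjusted p 0.0587 to 0.0632), and without VLDLR_KO 1 and 2 together the change was -0.12. Cdkn1a was, in after-B libraries, at 114, 137 and 132 CPM in VLDLR_KO, 185, 138 and 157 in ROBO4_KO and 208 and 214 in WT. Before-B libraries had 133 and 161 CPM in VLDLR_KO, 115 and 140 in ROBO4_KO and 173, 139 and 144 in WT. WT 1 and 2 were the highest of the 15, the forms overlapped, and the log2 fold change was 0.20 (SE 0.11, adjusted p = 0.17).

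Among the transcription factors, 4 of 5 rose. Mybl2 (B-Myb), a partner of MuvB at S and G2 phase promoters, was, in after-B libraries, at 22.6, 8.64 and 20.6 CPM in VLDLR_KO, 4.12, 12.4 and 18.2 in ROBO4_KO and 8.11 and 4.96 in WT. Before-B libraries had 1.2 and 1.6 CPM in VLDLR_KO, 1.49 and 2.48 in ROBO4_KO and 2.8, 2.9 and 3.19 in WT. The groups did not overlap, and Mybl2 rose 5.24-fold, with a log2 fold change of 2.39 (SE 0.43, adjusted p = 0.000626). Myc, a growth-driving transcription factor, was, in after-B libraries, at 66.4, 54.2 and 65.3 CPM in VLDLR_KO, 23.3, 26.5 and 33.9 in ROBO4_KO and 44.1 and 42 in WT. Before-B libraries had 14.9 and 14 CPM in VLDLR_KO, 22.4 and 24.3 in ROBO4_KO and 22, 24.1 and 25.1 in WT. VLDLR_KO held both the highest and the lowest values of Myc, and the after-B ROBO4_KO libraries lay near the before-B range. Myc rose by a log2 fold change of 1.03 (SE 0.22, adjusted p = 0.00241). Foxm1 (1.76, adjusted p = 0.000206) and E2f1 (0.49, adjusted p = 0.00208) rose too, and E2f2 was not called (0.60, adjusted p = 0.0789).

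All 4 genes of the cyclin E and A step rose. Ccne2 (cyclin E2, which starts S phase with Cdk2) was, in after-B libraries, at 34.9, 13.3 and 29.1 CPM in VLDLR_KO, 6.84, 22 and 31.2 in ROBO4_KO and 14 and 8.38 in WT. Before-B libraries had 0.926 and 0.713 CPM in VLDLR_KO, 4.53 and 2.94 in ROBO4_KO and 3.99, 5.17 and 4.31 in WT. ROBO4_KO 3, the lowest after-B library, was above every before-B library, and Ccne2 showed the largest rise of all members, 6.34-fold, with a log2 fold change of 2.67 (SE 0.52, adjusted p = 0.00109). Ccna2 (cyclin A2) was, in after-B libraries, at 92.5, 46.4 and 91.5 CPM in VLDLR_KO, 25.8, 87.9 and 119 in ROBO4_KO and 58.6 and 40.2 in WT. Before-B libraries had 7.74 and 7.37 CPM in VLDLR_KO, 11.7 and 13 in ROBO4_KO and 17, 18.9 and 18.1 in WT. The groups did not overlap, and the log2 fold change was 2.47 (SE 0.36, adjusted p = 0.000116). Ccne1 (2.22, adjusted p = 0.000334) and Cdk2 (0.36, adjusted p = 0.0395) also rose, Cdk2 by far less.

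Of 11 replication genes, 10 rose and Pcna was not called (0.36, adjusted p = 0.094). Uhrf1, which recruits the maintenance DNA methyltransferase behind the replication fork, was, in after-B libraries, at 125, 43.2 and 103 CPM in VLDLR_KO, 16.4, 59.4 and 82.1 in ROBO4_KO and 32.9 and 21.8 in WT. Before-B libraries had 5.01 and 4.16 CPM in VLDLR_KO, 7.68 and 10.1 in ROBO4_KO and 11.5, 12.3 and 10.8 in WT. The groups did not overlap and the log2 fold change was 2.64 (SE 0.49, adjusted p = 0.000766). Cdc6, which loads the MCM helicase onto origins, was, in after-B libraries, at 30.8, 10.3 and 24.8 CPM in VLDLR_KO, 2.78, 9.8 and 16.2 in ROBO4_KO and 6.65 and 6.1 in WT. Before-B libraries had 1.96 and 0.594 CPM in VLDLR_KO, 2.13 and 1.7 in ROBO4_KO and 2.8, 2.69 and 2.34 in WT. ROBO4_KO 3 and WT 3 overlapped, and Cdc6 rose by a log2 fold change of 2.50 (SE 0.49, adjusted p = 0.00123). Cdc45 (2.17, adjusted p = 0.000192), a subunit of the active helicase with Gins2 (1.26, adjusted p = 0.000842), rose as did all 6 MCM subunits, of which Mcm7 had the lowest adjusted p (1.91, adjusted p = 0.000579).

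All 4 genes of nucleotide supply rose. Rrm2, the regulatory subunit of ribonucleotide reductase, was, in after-B libraries, at 105, 44.3 and 92 CPM in VLDLR_KO, 25, 80.5 and 108 in ROBO4_KO and 44.8 and 31.5 in WT. Before-B libraries had 5.23 and 3.56 CPM in VLDLR_KO, 11.5 and 11.3 in ROBO4_KO and 17.3, 14.5 and 17 in WT. The groups did not overlap, and Rrm2 rose 6.14-fold, with a log2 fold change of 2.62 (SE 0.45, adjusted p = 0.000484). Tk1 (thymidine kinase 1) was, in after-B libraries, at 41.4, 18.3 and 42.9 CPM in VLDLR_KO, 10.9, 39.2 and 53.4 in ROBO4_KO and 21.6 and 13.4 in WT. Before-B libraries had 2.94 and 4.22 CPM in VLDLR_KO, 4.32 and 6.87 in ROBO4_KO and 7.82, 7.6 and 8.46 in WT. The groups again did not overlap, and the log2 fold change was 2.32 (SE 0.41, adjusted p = 0.00052). Rrm1, the catalytic subunit, rose by less (1.41, adjusted p = 0.000512), as did thymidylate synthase, Tyms (0.83, adjusted p = 0.00951).

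Every one of the 23 genes of mitosis and chromosomes rose. Top2a, the topoisomerase that untangles chromosomes, was, in after-B libraries, at 257, 115 and 250 CPM in VLDLR_KO, 68.6, 240 and 294 in ROBO4_KO and 146 and 108 in WT. Before-B libraries had 26.4 and 13.8 CPM in VLDLR_KO, 36.1 and 40 in ROBO4_KO and 52, 55.4 and 45.2 in WT. ROBO4_KO 3 was the lowest after-B library and still above all before-B libraries, and Top2a rose 5.11-fold, with a log2 fold change of 2.35 (SE 0.38, adjusted p = 0.000285). Mki67, whose protein Ki-67 coats mitotic chromosomes and is the usual marker of cycling cells, was, in after-B libraries, at 368, 164 and 360 CPM in VLDLR_KO, 84.2, 297 and 388 in ROBO4_KO and 190 and 156 in WT. Before-B libraries had 38.6 and 18.6 CPM in VLDLR_KO, 49 and 58.9 in ROBO4_KO and 77.5, 82.1 and 65.5 in WT. The groups did not overlap, though ROBO4_KO 3 was just above WT 4, and the log2 fold change was 2.27 (SE 0.40, adjusted p = 0.000535).

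The 8 mitotic kinases, cyclins and passenger proteins had a median log2 fold change of 1.96, with Aurkb (2.19, adjusted p = 6.94e-05), Plk1 (2.18, adjusted p = 7.3e-05), Aurka (1.74, adjusted p = 9.18e-05) and Ccnb1 (2.0, adjusted p = 9.81e-05) at the lowest adjusted p. The 5 genes of the spindle checkpoint and the anaphase-promoting complex had a median of 2.07, led by Bub1b (2.07, adjusted p = 4.84e-05) and Ube2c (2.23, adjusted p = 0.000125), the ubiquitin-conjugating enzyme of that complex. The 8 spindle, kinetochore and midzone genes had a median of 2.06, with the kinesin Kif20a (2.05, adjusted p = 7.77e-05) and the spindle assembly factor Tpx2 (1.74, adjusted p = 0.000207) first. All 130 tested transcripts of the 54 genes were also fitted with every other transcript of the transcript table: 46 were higher and 3 lower in after-B libraries, against 6.77% of 36240 transcripts called in either direction. No gene had transcripts called both ways. Of the Cdkn1a transcripts, NM_001111099.2 was lower (-1.05, adjusted p = 0.0464) and NM_007669.5 was not called (0.26, adjusted p = 0.205); of the E2f1 transcripts, NM_007891.5 was higher (1.81, adjusted p = 0.0082) and NM_001291105.1 was not called (0.00, adjusted p = 0.999).

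**Figure D2:**
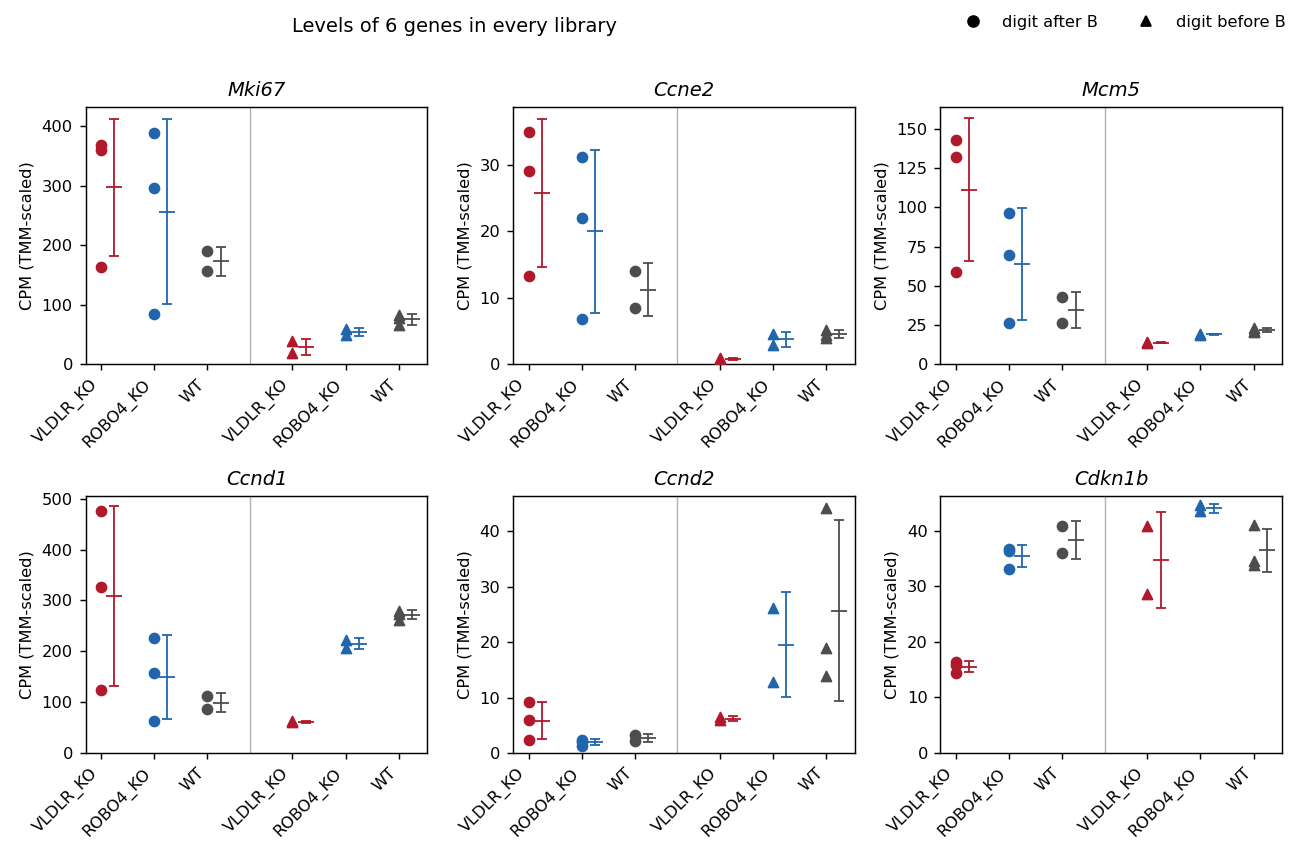
CPM of Mki67, Ccne2, Mcm5, Ccnd1, Ccnd2 and Cdkn1b in each library (points) with the mean and SD (bars) of each genotype and code form, after-B groups on the left. Mki67, Ccne2 and Mcm5 are higher in after-B libraries of every genotype, Ccnd1 only in VLDLR_KO, Ccnd2 is lower in ROBO4_KO and WT but not called in VLDLR_KO, and Cdkn1b is low in the 3 after-B VLDLR_KO libraries alone.

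The step between the forms was tested within each genotype. In VLDLR_KO 46 members rose and 1 fell, Cdkn1b (22.5% of all tested genes higher), with a median log2 fold change of 2.53. In ROBO4_KO 39 rose and 1 fell, Ccnd2 (7.95% of all tested genes higher), with a median of 1.80, and in WT 9 rose and 1 fell, Ccnd2 (7.89% higher), with a median of 0.96. The WT count rests on single libraries, being 1 to 3 genes called without any 1 of the 5 WT libraries, 6 without ROBO4_KO 4 and 35 without ROBO4_KO 3; the ROBO4_KO count is 10 without ROBO4_KO 1 and 11 without ROBO4_KO 2. Within WT, 12.4% of all tested genes were called without ROBO4_KO 4 and 16.4% without ROBO4_KO 3. In CPM, Mki67 averaged 297 ± 115 (SD, n = 3) in after-B and 28.6 ± 14.2 (n = 2) in before-B libraries of VLDLR_KO, 257 ± 156 (n = 3) and 54 ± 6.98 (n = 2) in ROBO4_KO, and 173 ± 23.9 (n = 2) and 75 ± 8.54 (n = 3) in WT. Its log2 fold change was 3.37 (SE 0.58, adjusted p = 0.000613) in VLDLR_KO, 2.25 (SE 0.54, adjusted p = 0.0131) in ROBO4_KO and 1.21 (SE 0.49, adjusted p = 0.119) in WT. The size of the step ran in the order VLDLR_KO, ROBO4_KO, WT at the median. The call in 1 genotype and not another does not show that they differ. The step of each knockout is tested against that of WT below. The steps of VLDLR_KO and ROBO4_KO were not tested against each other.

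**Figure D3:**
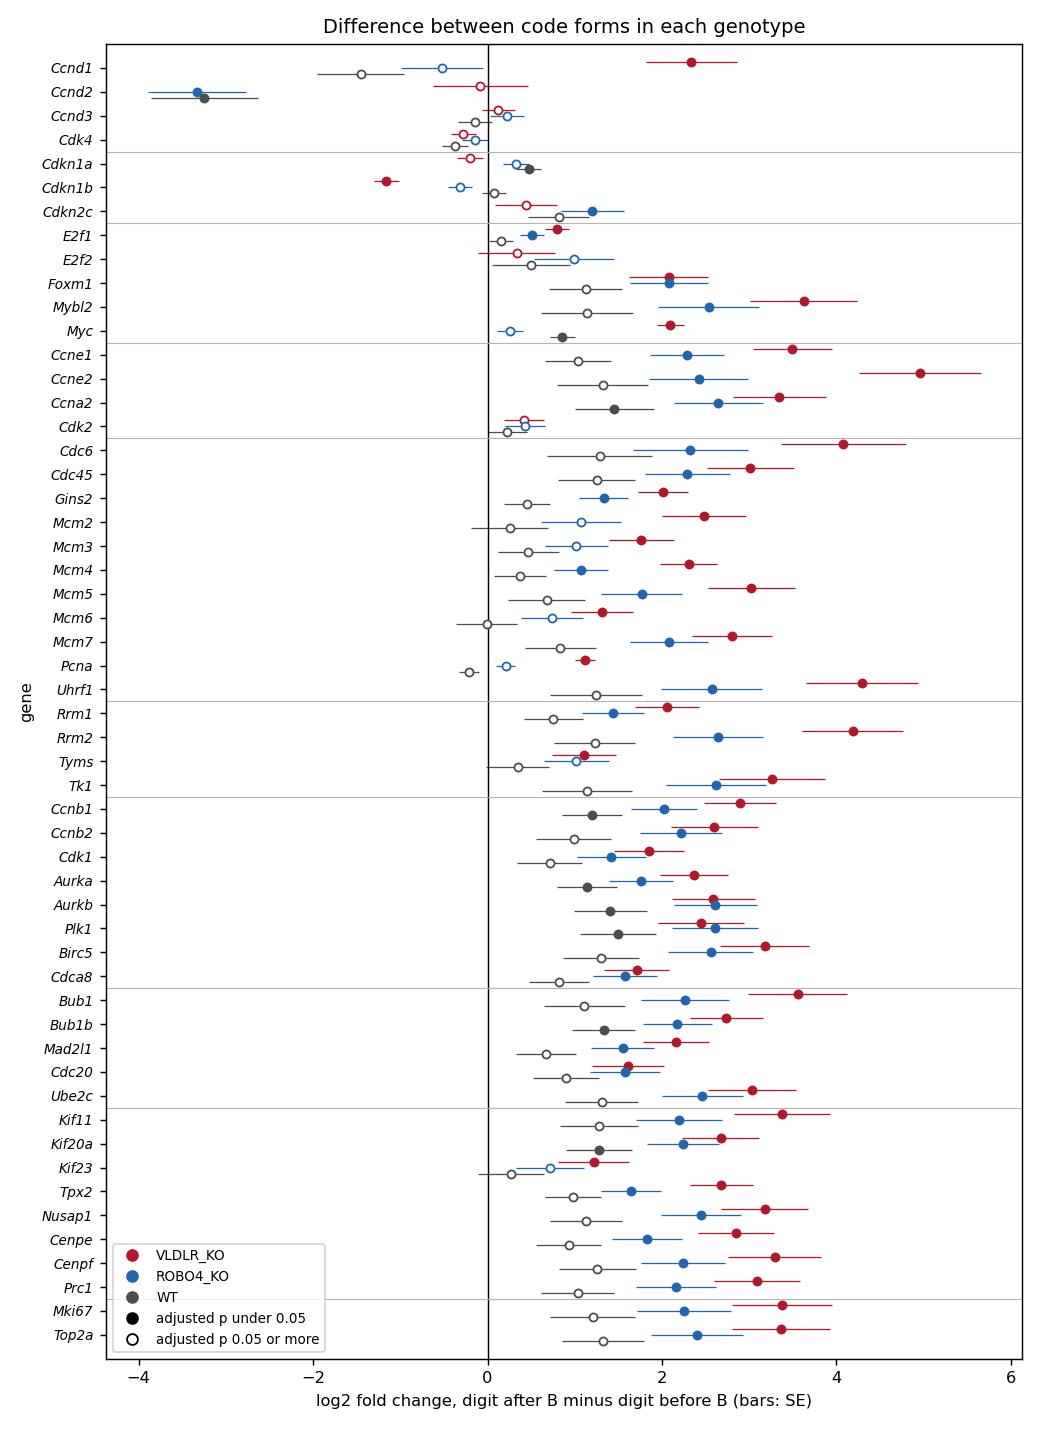
Log2 fold change, after-B over before-B, of each member in VLDLR_KO, ROBO4_KO and WT, with its SE; filled points have an adjusted p under 0.05. The median is 2.53 in VLDLR_KO, 1.80 in ROBO4_KO and 0.96 in WT.

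Averaged over both forms, few of these genes differed between the knockouts and WT. In VLDLR_KO minus WT 2 of the 54 were called, Cdk4 higher and Cdkn1b lower, against 16.5% of all tested genes in either direction; 9 had an unadjusted p under 0.05, a smaller share than the 32.2% of all tested genes. In VLDLR_KO minus ROBO4_KO the same pair was called (15.6% of all tested genes). In ROBO4_KO minus WT none was (0.664% of all tested genes), 1 had an unadjusted p under 0.05 (6.23% of all tested genes) and DESeq2 also called none. The comparisons share libraries. The count of VLDLR_KO minus WT was 0 without WT 2 and 1 without WT 1, WT 4, VLDLR_KO 3 or VLDLR_KO 5. It was 4 without VLDLR_KO 4 (18.9% of all tested genes). Without VLDLR_KO 1 and 2, the pair that stands apart, it was 10 (21.4% of all tested genes). Without that pair 9 were called in VLDLR_KO minus ROBO4_KO (20.9% of all tested genes). Neither count is above the general share. No member had all 5 libraries of either knockout on 1 side of all 5 WT libraries. Over all tested genes 3.96% lay above and 5.55% below WT in this way for VLDLR_KO, and 1.09% and 1.11% for ROBO4_KO. None of 54 is therefore below the general share for VLDLR_KO and near it for ROBO4_KO.

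Cdk4, with the library values given above, had a log2 fold change of 0.37 (SE 0.10, adjusted p = 0.0231) in VLDLR_KO minus WT and 0.43 (SE 0.10, adjusted p = 0.0107) in VLDLR_KO minus ROBO4_KO; the change against WT lost its call without WT 2, WT 4 or VLDLR_KO 2 (adjusted p 0.0509 to 0.0777). Cdkn1b had -0.68 (SE 0.19, adjusted p = 0.0246) in VLDLR_KO minus WT and -0.80 (SE 0.19, adjusted p = 0.0109) in VLDLR_KO minus ROBO4_KO. Against WT it was -1.30 among after-B and -0.07 among before-B libraries. Without WT 1, WT 2, VLDLR_KO 3 or VLDLR_KO 5 the change against WT lost its call (adjusted p 0.0546 to 0.0775). Mki67 had -0.28 (SE 0.47, adjusted p = 0.717) in VLDLR_KO minus WT and -0.14 (SE 0.44, adjusted p = 1) in ROBO4_KO minus WT, and Top2a -0.30 (SE 0.44, adjusted p = 0.675) and -0.05 (SE 0.42, adjusted p = 1). For Ccnd1 the values were 0.07 (SE 0.68, adjusted p = 0.955) and -0.20 (SE 0.59, adjusted p = 1), for Cdkn1a -0.39 (SE 0.13, adjusted p = 0.0608) and -0.29 (SE 0.14, adjusted p = 0.798), and for Myc 0.10 (SE 0.27, adjusted p = 0.834) and -0.38 (SE 0.26, adjusted p = 1). For Mki67, Top2a and Ccnd1 the sign against WT changed under several of the alternatives given in the closing section. In VLDLR_KO minus ROBO4_KO, Mki67 had -0.13, adjusted p = 0.864, Top2a -0.25, adjusted p = 0.716, Ccnd1 0.27, adjusted p = 0.8, Cdkn1a -0.10, adjusted p = 0.648 and Myc 0.47, adjusted p = 0.24. Among transcripts, none of the 130 was called against WT in either knockout (2.54% of all transcripts for VLDLR_KO and 0.0773% for ROBO4_KO), and 1 (2.44% of all transcripts), the Cdkn1b transcript NM_009875.4, was lower in VLDLR_KO than in ROBO4_KO (-0.84, adjusted p = 0.0426).

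Within each form VLDLR_KO and WT did differ, in opposite directions. Among before-B libraries 18 of the 54 were lower in VLDLR_KO and 0 higher, against 15.6% of all tested genes lower and 17.6% higher, with a median log2 fold change of -0.85. Among after-B libraries 10 were higher and 2 lower, against 5.94% of all tested genes higher and 7.43% lower, with a median of 0.57. The difference between these effects was tested as an interaction, and was called for 22 members: 20 with the higher VLDLR_KO effect in after-B libraries and 2 (Cdkn1b and Cdkn1a) with the lower one, against 6.57% and 7.93% of all tested genes, with a median of 1.66. These counts move with single libraries, and so does the share of all tested genes called. Without ROBO4_KO 3 that share was 33.9% among before-B libraries, 15.1% among after-B libraries and 16.3% for the interaction. Without VLDLR_KO 3 it was 7.61% among after-B libraries and 8.86% for the interaction. The counts of members were as follows. The before-B count was 2 without VLDLR_KO 2, 11 without WT 3 and 30 without ROBO4_KO 3, and the after-B count was 1 without WT 2, 2 without WT 1, VLDLR_KO 3 or VLDLR_KO 5, 20 without VLDLR_KO 4 and 21 without ROBO4_KO 3. The count of the interaction was 4 to 14 without WT 1, WT 2, WT 3, WT 4, WT 5, ROBO4_KO 1, ROBO4_KO 2, ROBO4_KO 4, VLDLR_KO 2, VLDLR_KO 3 or VLDLR_KO 5, in each case lower than with all libraries, 37 without VLDLR_KO 4 and 42 without ROBO4_KO 3.

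Before-B VLDLR_KO libraries were low in cyclins and mitotic genes. Pcna was at 277 and 273 CPM in VLDLR_KO, 630 and 593 in ROBO4_KO and 570, 649 and 677 in WT. The VLDLR_KO pair had less than every other library, and the log2 fold change of VLDLR_KO minus WT was -1.20 (SE 0.12, adjusted p = 1.3e-05). Ccnd1, given above, fell 4.45-fold in VLDLR_KO (-2.15, adjusted p = 0.00807), and Ccnd2 fell too (-2.06, adjusted p = 0.015). Myc (-0.71, adjusted p = 0.00407), Ccne2 (-2.44, adjusted p = 0.0193), Ccne1 (-1.41, adjusted p = 0.0303) and Rrm2 (-1.88, adjusted p = 0.0213) fell too. Of the 8 spindle, kinetochore and midzone genes 7 fell, first Tpx2 (-1.31, adjusted p = 0.0141), Nusap1 (-1.72, adjusted p = 0.0172), the kinetochore motor Cenpe (-1.50, adjusted p = 0.0179) and the spindle motor Kif11 (-1.82, adjusted p = 0.0204). Ccnb1, Ccnb2, Bub1 and Ube2c fell as well. Mki67 (-1.39, adjusted p = 0.0593), Top2a (-1.34, adjusted p = 0.0621) and Cdkn1a (-0.05, adjusted p = 0.813) were not called. Both VLDLR_KO libraries lay below all 3 WT libraries for 43 of the 54 members, against 26.1% of all tested genes, and above them for 5, against 25.2%.

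After-B VLDLR_KO libraries were high in genes of DNA replication. Of the 11 replication genes 7 rose, with a median of 1.45, and none of the 23 mitosis and chromosome genes was called. Mcm6, the most abundant MCM subunit by FPKM, was at 326, 141 and 267 CPM in VLDLR_KO, 85.5, 167 and 223 in ROBO4_KO and 103 and 75.6 in WT. The VLDLR_KO libraries lay above both WT libraries, and the ROBO4_KO libraries ran from within the WT range to above it. The log2 fold change of VLDLR_KO minus WT was 1.46 (SE 0.36, adjusted p = 0.0188). Mcm4 (1.21, adjusted p = 0.0209), Mcm3 (1.42, adjusted p = 0.0221) and Mcm7 (1.57, adjusted p = 0.0281) followed. E2f1 (0.50, adjusted p = 0.026), Myc (0.53, adjusted p = 0.0286) and Ccnd1 (1.64, adjusted p = 0.0478) rose as well. Cdkn1b fell 2.47-fold (-1.30, SE 0.14, adjusted p = 4.52e-05), and Cdkn1a fell (-0.72, adjusted p = 0.00547); all 3 VLDLR_KO libraries lay below both WT libraries for both inhibitors. Mki67 (0.78, adjusted p = 0.344) and Top2a (0.70, adjusted p = 0.377) were not called. Osteoclast markers summed to 1260 to 2260 CPM in the after-B VLDLR_KO and 1950 to 2130 CPM in the after-B WT libraries. None of the 6 tested was called (5.94% of all tested genes higher and 7.43% lower). The part of these markers in the differences above was not tested.

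The interaction was largest for Ccnd1 (3.79, SE 0.72, adjusted p = 0.00562), Ccne2 (3.64, SE 0.87, adjusted p = 0.018), Ccnd2 (3.16, SE 0.82, adjusted p = 0.0245) and Uhrf1 (3.05, SE 0.81, adjusted p = 0.0273). Pcna (1.33, adjusted p = 0.000328), Myc (1.24, adjusted p = 0.00282) and Cdkn1b (-1.24, adjusted p = 0.00221) were called as well, and for these 3 and Ccnd1 the call held under every alternative run. Mki67 (2.17, adjusted p = 0.0627) and Top2a (2.04, adjusted p = 0.0687) were not called. The VLDLR_KO effect on G1 genes differed between the forms by single-gene tests for Ccnd1, Ccnd2, Cdkn1a and Cdkn1b, with opposite signs for the cyclins and the inhibitors.

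**Figure D4:**
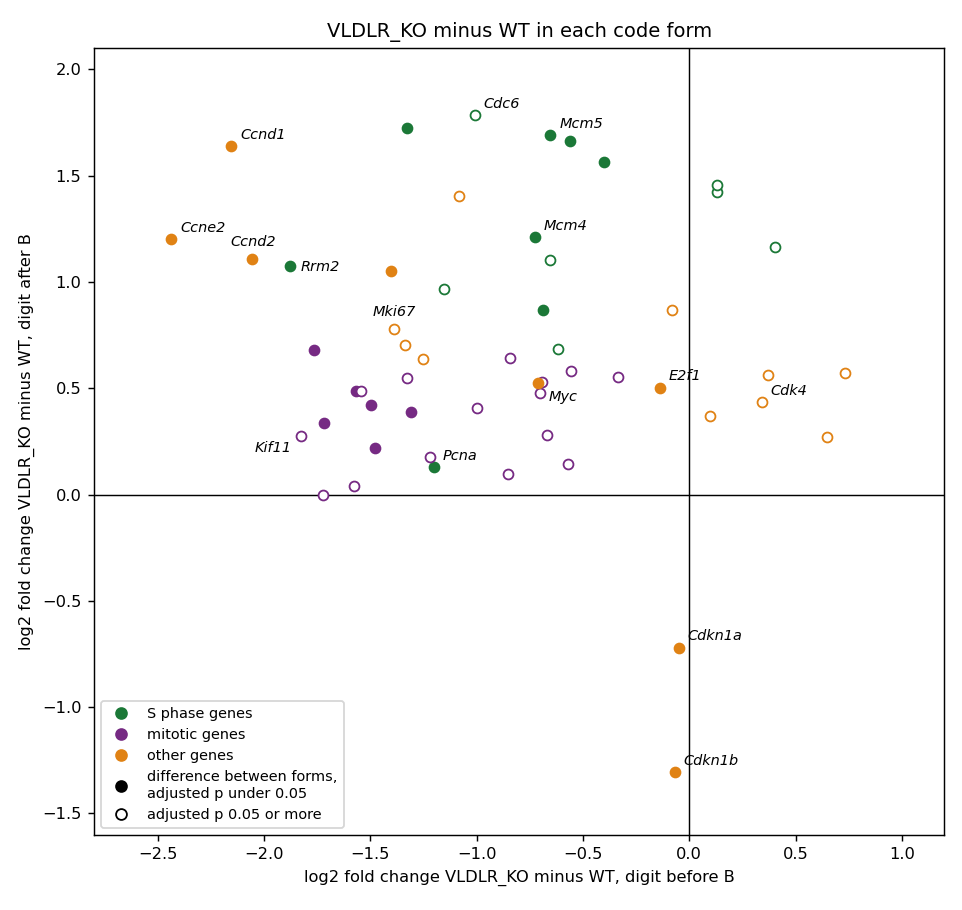
Log2 fold change of VLDLR_KO over WT for each member, before-B libraries on the horizontal and after-B libraries on the vertical axis, coloured as S phase, mitotic or other; filled points have a called difference between the forms. Most members lie left of 0 and above 0, S phase genes higher than mitotic ones.

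The S phase and the mitotic genes did not move in step across genotypes. For each library the levels, as log2 CPM minus each gene's mean, were averaged over the 15 S phase genes and over the 21 mitotic genes. The mean of the S phase genes minus that of the mitotic genes was 0.59, 0.249 and 0.283 in after-B VLDLR_KO libraries and 0.344 and 0.503 in the before-B ones. In ROBO4_KO it was -0.216, -0.457 and -0.315 in after-B and 0.137 and -0.0127 in before-B libraries, and in WT -0.466 and -0.458 in after-B and -0.0793, -0.0326 and -0.068 in before-B libraries. It was positive in all 5 VLDLR_KO libraries, in 1 of 5 ROBO4_KO libraries and in no WT library. Each gene was centred on its mean over the same libraries, so positive values in some libraries bring negative ones in others. The signs are therefore relative to this set of libraries. This is a description of gene averages, and no test was made of it.

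**Figure D5:**
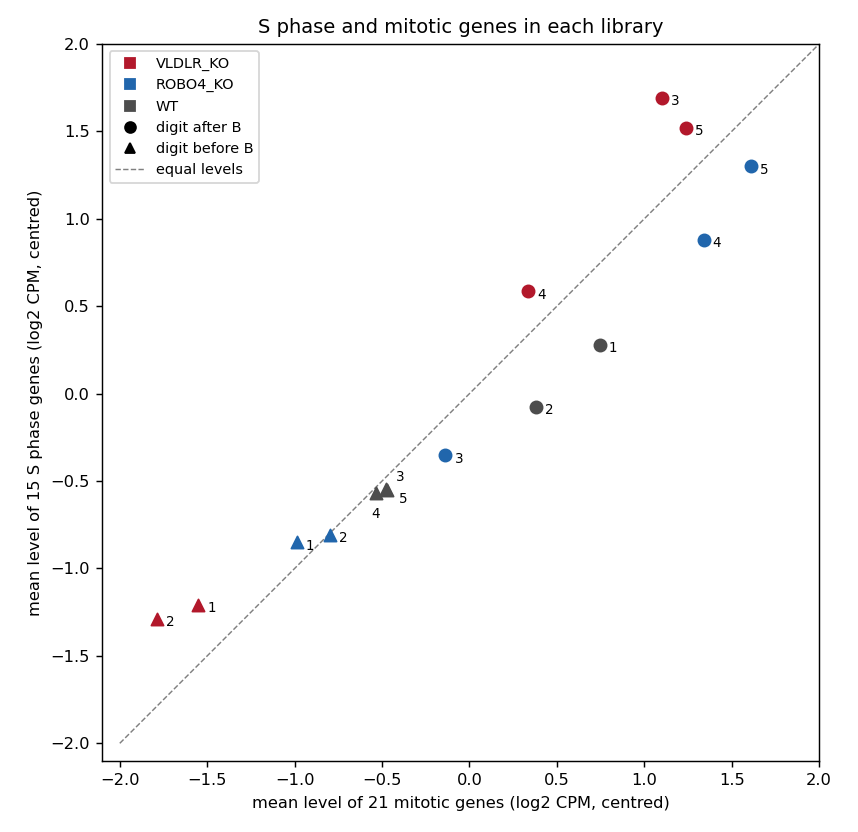
Mean level of the 15 S phase genes against that of the 21 mitotic genes in each library (log2 CPM minus each gene's mean). All 5 VLDLR_KO libraries lie on the S phase side of the line of equal levels, by 0.249 to 0.59.

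Within the forms, 1 member was called in ROBO4_KO minus WT. Among after-B libraries Myc, given above, was lower in ROBO4_KO (-0.62, SE 0.14, adjusted p = 0.0454), all 3 libraries lying below both WT libraries, against 1.59% of all tested genes called in either direction; this call was lost in 11 of the 15 fits that left out 1 library. Among before-B libraries none of the 54 was called, and none had an unadjusted p under 0.05 (0.328% of all tested genes called, and 4.8% with an unadjusted p under 0.05). Both ROBO4_KO libraries lay below all 3 WT libraries for 37 of the 54, against 14.1% of all tested genes, with a median log2 fold change of -0.32; Mki67 was at 49 and 58.9 CPM in ROBO4_KO and 77.5, 82.1 and 65.5 in WT. The interaction with the form was called for none (0.385% of all tested genes), and 5 had an unadjusted p under 0.05 (5.12% of all tested genes). The directions were nevertheless those of VLDLR_KO, against the same WT libraries. Among after-B libraries 50 of the 54 were above 0 (6329 of 12198 tested genes), with a median of 0.56, against 0.57 in VLDLR_KO. The interaction was above 0 for 50 (6292 of 12198 tested genes), with a median of 0.89, against 1.66 in VLDLR_KO.

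ROBO4_KO 3 and VLDLR_KO 4 held the lowest levels of these genes among the after-B libraries of their genotypes. The mean level of the 54 genes, in log2 CPM relative to each gene's mean over libraries, was 1.22, 0.345 and 1.2 in VLDLR_KO 3 to 5, -0.293, 0.947 and 1.27 in ROBO4_KO 3 to 5 and 0.474 and 0.116 in WT 1 and 2. Left out together, an alternative chosen after the data were seen and picked by the members' own levels, they changed many counts: 44 members were called in VLDLR_KO minus WT among after-B libraries (42 higher), 38 in ROBO4_KO minus WT (37 higher), 41 in VLDLR_KO minus WT among before-B libraries (38 lower), and 47 for the VLDLR_KO interaction. In the same fits 21.9%, 3.86%, 36.1% and 21.1% of all tested genes were called, in that order. Osteoclast markers were highest in these 2 libraries: they summed to 1260, 2260 and 1520 CPM in VLDLR_KO 3 to 5, 2440, 1570 and 1370 in ROBO4_KO 3 to 5 and 1950 and 2130 in WT 1 and 2. Among the 9 osteoclast markers listed, only Ctsk, the collagen-degrading protease of osteoclasts, is given singly here. It was at 160 CPM in VLDLR_KO 4 and 119 in ROBO4_KO 3, against 31.9 to 55.7 CPM in the other 6 after-B libraries. The sum set these 2 libraries less apart than Ctsk did, with WT 1 and 2 at 1950 and 2130 CPM against 2260 in VLDLR_KO 4. The part of these markers in the level of the cell cycle genes was not tested. Because those libraries were chosen by the outcome, these counts describe the spread of the data and are no test of genotype.

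Other genes of the same pathways, from lists that share no member with the 54, were counted in the same fits. Of 44 further replication genes, 38 were higher and 0 lower in after-B libraries (18.5% and 19.2% of all tested genes), the lowest adjusted p being those of Rfc5 (1.25, adjusted p = 2.93e-06), Fen1 (1.09, adjusted p = 8.55e-05), Chaf1a (1.81, adjusted p = 0.000242) and Mcm10 (2.40, adjusted p = 0.00032). In VLDLR_KO minus WT 16 of the 44 were higher and 0 lower among after-B libraries (5.94% and 7.43% of all tested genes), first Ung (2.33, adjusted p = 0.00575), Rfc3 (1.0, adjusted p = 0.00765), Orc1 (2.03, adjusted p = 0.00904) and Timeless (1.91, adjusted p = 0.0167). Among before-B libraries 1 was higher and 3 were lower (17.6% and 15.6% of all tested genes), with Rfc2 higher and Mcm8 (-1.30, adjusted p = 0.0111) and Pole (-1.82, adjusted p = 0.0293) among those lower; both counts are below the general share. Pooled over forms 3 were higher (7.67% of all tested genes), near the general share, among them Orc1, the largest subunit of the origin recognition complex (1.54).

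Of 65 further genes of mitosis and cytokinesis, 59 were higher and 1 lower in after-B libraries (18.5% and 19.2% of all tested genes), first Hmgb2 (1.48, adjusted p = 3.12e-05), Cdc25c (1.86, adjusted p = 0.000122), Kif22 (1.74, adjusted p = 0.000124) and Ska1 (2.44, adjusted p = 0.000126). In VLDLR_KO minus WT 19 of the 65 were lower among before-B libraries and 1 among after-B libraries (15.6% and 7.43% of all tested genes), and none was higher in either form (17.6% and 5.94%). The gene lower in both was Pttg1 (securin, which inhibits the separation of sister chromatids until anaphase). Pttg1 was, in after-B libraries, at 6.88, 4.07 and 10.3 CPM in VLDLR_KO, 16.8, 17.3 and 16.6 in ROBO4_KO and 19.5 and 18.5 in WT. Before-B libraries had 1.63 and 4.16 CPM in VLDLR_KO, 18.7 and 18.2 in ROBO4_KO and 18.5, 18.4 and 20.9 in WT. All 5 VLDLR_KO libraries lay below all other libraries in either form, which held 16.6 to 20.9 CPM. The log2 fold change of VLDLR_KO minus WT was -1.93 (SE 0.31, adjusted p = 0.000627).

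Of 33 further cell cycle regulators, 16 were higher and 2 lower in after-B libraries (18.5% and 19.2% of all tested genes). The 2 that fell were the neighbouring inhibitor genes Cdkn2a, which encodes p16 and p19Arf, and Cdkn2b, which encodes p15. Cdkn2a was, in after-B libraries, at 0.212, 0.279 and 0.159 CPM in VLDLR_KO, 0.445, 0.313 and 0.359 in ROBO4_KO and 0.335 and 0 in WT. Before-B libraries had 6.43 and 12.2 CPM in VLDLR_KO, 3.62 and 6.71 in ROBO4_KO and 4.46, 2.75 and 3.09 in WT. The groups did not overlap, and the log2 fold changes were Cdkn2a (-4.49, adjusted p = 8.91e-07) and Cdkn2b (-2.29, adjusted p = 0.00016). The retinoblastoma relative Rbl1 (1.46, adjusted p = 0.000129) and the E2F repressor E2f8 (2.47, adjusted p = 0.000285) were among those that rose. In VLDLR_KO minus WT the inhibitor Cdkn1c (p57) was lower (-1.80, adjusted p = 0.00942) and E2f4 (0.24, adjusted p = 0.0283) higher. Cdkn1c was, in after-B libraries, at 153, 148 and 118 CPM in VLDLR_KO, 182, 179 and 95.4 in ROBO4_KO and 237 and 196 in WT. Before-B libraries had 34.9 and 48.2 CPM in VLDLR_KO, 187 and 153 in ROBO4_KO and 449, 394 and 359 in WT. Before-B WT libraries were the highest and before-B VLDLR_KO libraries the lowest.

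Of 21 p53 targets tested, 7 were lower and 2 higher in VLDLR_KO than in WT (8.85% and 7.67% of all tested genes), first Plk2 (-1.27, adjusted p = 2.52e-05), Pmaip1 (-1.13, adjusted p = 0.000268), Gadd45a (-0.86, adjusted p = 0.000347) and Ei24 (-0.37, adjusted p = 0.00109); 1 was higher and 6 lower in after-B libraries, the second near the general share (18.5% and 19.2% of all tested genes). Plk2 was, in after-B libraries, at 164, 261 and 188 CPM in VLDLR_KO, 341, 328 and 308 in ROBO4_KO and 464 and 505 in WT. Before-B libraries had 137 and 110 CPM in VLDLR_KO, 317 and 317 in ROBO4_KO and 316, 341 and 322 in WT, and all 5 VLDLR_KO libraries lay below the other 10. Of 24 genes of the Myc network and its targets, 10 were higher and 2 lower in VLDLR_KO than in WT among after-B libraries (5.94% and 7.43% of all tested genes), first the Myc antagonist Mxd1 (-1.72, adjusted p = 2.19e-06), the ribosome assembly gene Rrp12 (1.14, adjusted p = 0.00137), the pyrimidine synthesis gene Cad (1.19, adjusted p = 0.00501) and the spermidine synthase gene Srm (1.16, adjusted p = 0.00585). Among before-B libraries 0 were higher and 3 lower (17.6% and 15.6% of all tested genes). Of 21 replication histone genes found, which summed to 71.8 to 158 CPM, only 5 passed the filter on low counts. None of the 5 differed between the forms (18.5% of all tested genes higher and 19.2% lower). With so few tested after a messenger RNA preparation, this does not show how histone genes as a group behaved.

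Other gene groups were counted in the same contrasts. Of 25 genes of M-CSF signalling and lineage, 8 were higher and 2 lower in after-B libraries (18.5% and 19.2% of all tested genes). In VLDLR_KO minus WT 6 were higher, Csf1r itself among them (1.03), and 5 lower among before-B libraries, near the 17.6% and 15.6% of all tested genes. Of 20 immediate-early genes, 15 were lower in VLDLR_KO and 15 in ROBO4_KO than in WT among after-B libraries (7.43% and 1.22% of all tested genes). Their summed level was 5040 CPM in WT 1 and 5560 CPM in WT 2, against 1220 to 1960 CPM in the other 13 libraries, so every after-B comparison with WT rests on this pair. Their part in the results above was not tested. Without WT 1 and 2, 4 members were called in VLDLR_KO minus WT pooled over forms. That fit holds no after-B WT library, so it does not check the after-B comparison.

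Markers of macrophages and of other cells were summed in CPM per library. The 16 macrophage markers summed to 21900 to 24100 CPM in VLDLR_KO, 17800 to 18600 in ROBO4_KO and 20500 to 21000 in WT among after-B libraries. Among before-B libraries they summed to 33900 to 43300 CPM in VLDLR_KO, 16800 to 17000 in ROBO4_KO and 14600 to 17400 in WT. There 8 were higher and 3 lower in VLDLR_KO than in WT (17.6% and 15.6% of all tested genes). The 3 lower ones are near the general share. The fibroblast and stromal markers summed to 15.4 to 26.5 CPM in VLDLR_KO, 12.5 to 16.5 in ROBO4_KO and 34.7 to 44.4 in WT among after-B libraries. Among before-B libraries they summed to 3.38 to 22.5 CPM in VLDLR_KO, 38.8 to 226 in ROBO4_KO and 69.9 to 257 in WT. Of the 13 tested, 10 were lower in VLDLR_KO than in WT (15.6% of all tested genes). The lower cell cycle genes of before-B VLDLR_KO libraries came with higher sums of macrophage markers and lower sums of stromal markers, and the part of either in that result was not tested.

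Between the forms, osteoclast markers summed to 1260 to 2440 CPM in after-B and 707 to 1270 CPM in before-B libraries. Of 6 tested, 5 were higher and 1 lower in after-B libraries. Over all tested genes 18.5% were higher and 19.2% lower, which is the general share for every count in this comparison. A single lower gene among 6 is near that share. Granulocyte and progenitor markers summed to 9.98 to 23 CPM in after-B and 6.95 to 39.6 CPM in before-B libraries, with 5 of 6 higher and 1, Kit, lower. Endothelial markers summed to 85.1 to 141 CPM in after-B and 200 to 257 CPM in before-B libraries, with 2 higher and 2 lower of 5, and the platelet factor gene Pf4, the only tested marker of its list, rose. The part of these cells in the difference between the forms was not tested. Osteoblast markers, nearly all of it Spp1, which macrophages also express, summed to 1720 to 4260 CPM, T and NK cell markers to 12.2 to 54.7 CPM, dendritic cell markers to 0.447 to 2.05 CPM, B cell markers to 0.218 to 1.66 CPM, mast cell markers to 0 to 0.518 CPM and adipocyte markers to 0 to 0.39 CPM over the 15 libraries. None of the listed genes found in the table was at 0 in every library.

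The authors' deposited table holds their own comparisons of each knockout with WT within each form, whose sets were identified by their deposited mean counts. In the authors' deposited table, 31 of the 54 had a q-value under 0.05 between VLDLR_KO and WT in the before-B form (30 lower and 1 higher in VLDLR_KO) and 20 in the after-B form (18 higher and 2 lower). Between ROBO4_KO and WT the authors' deposited table called 2 in the before-B form, both lower in ROBO4_KO, and 1 in the after-B form, lower as well. The share of all genes under this q-value in the authors' comparisons is not given here, so no general share stands beside these counts. These counts come from the libraries of 1 form alone, whereas the fits above share the spread over all 15 libraries; with the libraries of 1 form alone, the quasi-likelihood test called 35 members in the before-B form and 3 in the after-B form for VLDLR_KO minus WT, against 20.5% and 15.7% of all genes tested there, so the after-B count is below the general share.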

How the data were processed

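RNA of the 15 libraries was prepared with a SMARTER mRNA-Seq kit and read in pairs on a BGISEQ-500, per the labels' protocols. The submitters' processing notes list HISAT, Bowtie2 and the build GRCm38.p6; the annotation release and the quantifier are not given in the sources used here. Gene and transcript tables hold read counts, per the file headers; these are estimated counts (92.6% of the gene values were whole) and were deposited without normalization. The deposited length-scaled values carry no unit in the headers and were taken as FPKM, because counts and values kept the same ratio within a gene once library totals were allowed for (median deviation 0.325%). The deposited comparisons hold log2 fold changes, given as WT over knockout, and q-values from DESeq2, per the file headers; the sets compared, named by letter, were identified by their deposited mean counts, which equal the means over 1 genotype and form, within 1 count for 100% of genes.

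Counts were rounded to whole numbers and fitted in R 4.3.3 with edgeR 4.0.16: filterByExpr by genotype and code form (12198 of 16886 genes; 36240 of 54327 transcripts), TMM scaling, and two-sided quasi-likelihood F tests over all 15 libraries with 1 shared spread. Pooled contrasts had genotype and code form as terms, and contrasts within a form or genotype had 1 coefficient for each of the 6 combinations. A gene is called where its Benjamini-Hochberg adjusted p over all tested genes is under 0.05. CPM are on TMM-scaled totals, and log2 CPM have a prior count of 2. The test was tried on simulated data with 200 changed genes. Totals of 18132866 to 19005966 limit precision less than the spread between libraries does. The chi-square per degree of freedom between replicates of 1 genotype and form was 5.92 to 92.6, so all pairs differ by more than counting error. Whether replicates came from separate cultures or animals cannot be told from this. Same-digit codes of the same form were checked for pairing: the correlation of their deviations was -0.473 to 0.311 over 12 pairs, above 0.1 in 4. Pairs of different digits gave -0.483 to 0.559 over 25 pairs, above 0.1 in 13. Deviations from the mean of only 2 or 3 libraries mirror each other, so this check cannot decide whether the digits pair libraries.

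The members and all gene lists were chosen with earlier results of these data known. Named in full are the called members of the 4 pooled contrasts, up to 8 each way by size, and Mki67, Top2a, Ccnd1, Cdkn1a and Myc whatever their values; otherwise up to 4 genes per role or list by lowest adjusted p, and promoters of members called in the same direction by lowest adjusted p. Pttg1, Cdkn1c, Csf1r, Cdkn2a, Cdkn2b and Plk2 were singled out after their values were seen. Alternatives were the fit without the code form, RLE scaling, DESeq2 1.42.0, no filter, limma 3.58.1 on log2(FPKM + 0.1), a replicate block, and leaving out libraries. Fitting 1 form alone and leaving out ROBO4_KO 3 with VLDLR_KO 4 or VLDLR_KO 1 with 2 were added after the data were seen. The separate gene-level count table was not used here. 1 gene of the further replication list is not reported here by name.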

Additional observations from a re-analysis of the deposited data

Results flagged for a closer look

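In 2 of the 162 groups of 5 libraries examined, 1 library stood far from the other 4 by Dixon's test at the 95% level, which chance gives in about 1 group in 20. Ccnd1 was at 63.1 CPM in ROBO4_KO 3, below the other ROBO4_KO libraries. E2f1 was at 44.7 CPM in WT 1, above the other WT libraries.

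The effect of VLDLR_KO relative to WT differed between after-B and before-B libraries in 22 of the 54 genes, by the interaction test of the edgeR quasi-likelihood fit (adjusted p under 0.05). Over all tested genes 6.57% had a positive and 7.93% a negative difference called. The after-B effect minus the before-B effect, on the log2 scale, was 1.33 for Pcna, 1.24 for Myc, 3.79 for Ccnd1, 1.94 for Mcm4, 3.64 for Ccne2, 2.46 for Ccne1, 2.95 for Rrm2, 1.56 for Gins2, 3.16 for Ccnd2, 3.05 for Uhrf1, 2.35 for Mcm5, 1.7 for Tpx2, 2.23 for Mcm2, 0.642 for E2f1, 1.92 for Cenpe, 2.45 for Bub1, 1.97 for Mcm7, 2.05 for Nusap1, 2.05 for Prc1 and 1.7 for Ccnb1. It was -1.24 for Cdkn1b and -0.67 for Cdkn1a. The 20 positive differences are cyclins, E2f1, Myc and genes of replication, nucleotide supply and mitosis, and the 2 negative ones are the inhibitors p21 and p27. Each form holds 2 or 3 libraries of each genotype, and what separates the forms is not stated in the labels, so form and any difference in culture, time or preparation cannot be told apart.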

How the results depend on the processing

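Among the counts of called members, the forms' difference (49) stayed within 1.5 times under every alternative run, with 45 to 50 when 1 library was left out, as did the count within VLDLR_KO (44 to 48 by library). RLE scaling, no filter and limma (run on the 4 pooled contrasts) moved no count by more than that. For VLDLR_KO minus WT (2 called), the count was 0 without the form in the model, 7 with DESeq2, 4 without WT 1 and 2, 6 without ROBO4_KO 3 and VLDLR_KO 4, 10 without VLDLR_KO 1 and 2, and 0 to 4 without 1 library. For VLDLR_KO minus ROBO4_KO (2), these were 0 without the form, 4 with DESeq2, 1 and 9 without those last pairs, and 2 to 3 by library. Over all tested genes, 9.34% and 7.46% were called in these contrasts without the form and 21.7% and 19.9% with DESeq2. Without ROBO4_KO 3 and VLDLR_KO 4 the shares were 18.9% and 12.8%. The members' counts in these fits are below those shares. Without VLDLR_KO 1 and 2, 21.4% and 20.9% of all tested genes were called in those contrasts, in that order. Among before-B libraries VLDLR_KO minus WT (18) gave 35 from that form alone, 41 without ROBO4_KO 3 and VLDLR_KO 4 and 2 to 30 by library; among after-B libraries (12) 3, 44 and 1 to 21. The interaction (22) gave 38 with DESeq2, 47 without ROBO4_KO 3 and VLDLR_KO 4 and 4 to 42 by library. ROBO4_KO minus WT gave 0 to 0 by library pooled, 0 to 0 among before-B libraries, and among after-B libraries (1) 2 with DESeq2, 0 from that form alone, 38 without ROBO4_KO 3 and VLDLR_KO 4 and 0 to 1 by library; its interaction gave 30 and 0 to 0. Within WT the form (10) gave 19 with DESeq2, 41 without ROBO4_KO 3 and VLDLR_KO 4 and 1 to 35 by library, and within ROBO4_KO (40) 10 to 46. Among before-B libraries VLDLR_KO minus WT called 20.5% of all tested genes from that form alone. Without ROBO4_KO 3 and VLDLR_KO 4 it called 36.1%. Among after-B libraries these shares were 15.7% and 21.9%. For the interaction they were 20.3% with DESeq2 and 21.1% without that pair. In the same order they were 2.67% and 3.86% for ROBO4_KO minus WT among after-B libraries, and 18.2% and 18.9% within WT. The causes were not tested.

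With a replicate block of form and digit, 1 member was called in VLDLR_KO minus WT, 0 in ROBO4_KO minus WT and 2 in VLDLR_KO minus ROBO4_KO. Of all tested genes 12.5%, 0.418% and 9.44% were called, in that order. The Mki67 log2 fold change of VLDLR_KO minus ROBO4_KO was 0.011 in that fit. Whether the digits pair the libraries is not known, so how to read a lost call there is open.

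Of 1962 alternative values for single named genes, 1593 kept direction and call, 277 lost and 38 gained the call, and 54 changed sign, none of them in a called result. The sign changes below are log2 fold changes. Without the form in the model, VLDLR_KO minus WT was 0.733 for Mki67 and 0.702 for Top2a, ROBO4_KO minus WT 0.62 and 0.738, and VLDLR_KO minus ROBO4_KO 0.113 for Mki67. Without VLDLR_KO 1 and 2 these 3 contrasts were 0.454, 0.0593 and 0.395 for Mki67 and 0.371, 0.14 and 0.231 for Top2a, and ROBO4_KO minus WT was 0.121 for Ccnd1. Without ROBO4_KO 3 and VLDLR_KO 4, ROBO4_KO minus WT was 0.0214 for Mki67 and 0.109 for Top2a, and the form difference of Ccnd1 0.22. With limma, Ccnd1 was -0.287 in VLDLR_KO minus WT and -0.13 in VLDLR_KO minus ROBO4_KO, and Myc -0.0171 in VLDLR_KO minus WT. Without WT 1 and 2, Ccnd1 was -1.01, -0.044 and, between the forms, 0.75, and Myc -0.04. Leaving out 1 library, Mki67 ranged over -0.56 to 0.0871 in VLDLR_KO minus WT, -0.392 to 0.038 in ROBO4_KO minus WT and -0.389 to 0.128 in VLDLR_KO minus ROBO4_KO; Top2a over -0.593 to 0.0337 and -0.314 to 0.126 against WT; Ccnd1 over -0.398 to 0.609, -0.245 to 0.671 and, between the forms, -0.444 to 0.295; Myc over -0.0225 to 0.318; and Cdkn1a over -0.196 to 0.0806 among before-B libraries.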
